A study of Mus musculus with 2 samples.

Results

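The genes described here are 7 transcription factor genes of the ventral forebrain and its interneurons: Nkx2-1, Lhx6, Lhx8, Gsx1, Gsx2, Isl1 and Prox1. They were listed by name, and all 7 were found among the 32093 protein-coding and long noncoding RNA genes of the GENCODE M21 annotation of mouse (mm10). CTCF binding was mapped with ChIP-seq, the sequencing of DNA recovered with an antibody, in B6NCrl mouse forebrain at postnatal day 0. The tissue was pulverized and pooled over several dissections, and its sex was not recorded. The series had 1 group of 2 libraries, replicate 1 and replicate 2, which name 1 tissue source, so their differences may be technical. Around the 7 genes, 79 of the 56462 placed summits of the optimal peak list lay within 200 kb of a transcription start site (TSS), and no summit lay near more than 1 of the genes.

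CTCF is a zinc-finger protein that stops the cohesin complex as it extrudes loops of chromatin. Its motif has a direction, and loops tend to form between sites whose motifs point towards each other. Such loops and the boundaries between them limit which enhancers can reach a promoter. In the embryonic ventral telencephalon, the Gsx proteins pattern the ganglionic eminences. Nkx2-1 specifies the medial eminence, where it activates Lhx6 in future cortical interneurons and Lhx8 in future cholinergic neurons. Isl1 marks striatal projection neurons and takes part with Lhx8 in cholinergic fate. Prox1 acts in interneurons of the caudal eminence and in dentate granule cells.

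The printed sites are those nearest to the genes or strongest around them, shown so that the letters at each can be set beside the CTCF motif. Each sequence is from the mm10 genome, 5′ to 3′ on the strand of its best match, with 15 flanking bases on each side. Capitals mark the best match to the 14-base CTCF consensus motif, and a match was counted when it had at most 2 mismatches and lay within 50 bp of the summit. The first 5 sites were the nearest to their genes.
Nkx2-1, 4379 bp upstream, 0 mismatches, chr12:56541266-56541309, − strand: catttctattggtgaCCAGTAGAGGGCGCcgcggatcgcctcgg
Isl1, 2647 bp upstream, 3 mismatches, chr13:116312305-116312348, − strand: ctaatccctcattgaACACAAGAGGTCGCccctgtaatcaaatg
Gsx1, 2629 bp upstream, 3 mismatches, chr5:147186017-147186060, + strand: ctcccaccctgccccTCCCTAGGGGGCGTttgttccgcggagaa
Prox1, 11397 bp upstream, 3 mismatches, chr1:190182096-190182139, − strand: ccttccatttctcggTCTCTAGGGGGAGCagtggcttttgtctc
Lhx8, in its intron 12004 bp downstream of the TSS, 3 mismatches, chr3:154318027-154318070, + strand: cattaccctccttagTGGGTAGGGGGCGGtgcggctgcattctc
The other 8 were among the strongest within 200 kb of their genes.
Lhx8, 60134 bp downstream, 2 mismatches, chr3:154269899-154269942, + strand: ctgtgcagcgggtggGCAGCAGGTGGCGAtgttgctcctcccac
Lhx6, 108826 bp upstream, 0 mismatches, chr2:36214207-36214250, − strand: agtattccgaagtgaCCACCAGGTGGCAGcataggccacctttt
Lhx6, 94472 bp downstream, 0 mismatches, chr2:36009546-36009589, + strand: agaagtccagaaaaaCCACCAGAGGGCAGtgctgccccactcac
Lhx6, 82251 bp downstream, 4 mismatches and so no match, chr2:36021786-36021829, − strand: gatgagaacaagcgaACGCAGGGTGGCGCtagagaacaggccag
Gsx1, 38859 bp downstream, 1 mismatch, chr5:147227533-147227576, − strand: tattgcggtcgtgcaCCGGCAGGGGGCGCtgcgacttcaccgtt
Gsx2, 114240 bp upstream, 2 mismatches, chr5:74961344-74961387, + strand: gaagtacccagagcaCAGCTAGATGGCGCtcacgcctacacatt
Gsx2, 81667 bp downstream, 1 mismatch, chr5:75157239-75157282, − strand: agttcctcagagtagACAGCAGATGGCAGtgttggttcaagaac
Prox1, 196161 bp downstream, 0 mismatches, chr1:189973217-189973260, − strand: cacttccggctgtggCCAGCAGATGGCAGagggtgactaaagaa

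None of the 7 genes had a CTCF site at its promoter. Within 1 kb of any TSS the count was 0 of 7, while 8081 of 21938 protein-coding genes (36.8%) carried one. The same count was 0 of 7 with the strongest peaks of replicate 1 alone and of replicate 2 alone, as many as the optimal list holds, and with the conservative list, where 35.5% of protein-coding genes had one. With only 7 genes picked by name, no test was made of whether this share differs from that of other genes. Each peak's signal value is the strength that the authors' peak caller wrote, on a scale that was not stated. Read depth is not given in the sources used here, and a list of called peaks does not separate an unbound site from one below the caller's limit. The tissue is a mixture of cells, so binding in few cells and weak binding in many cannot be told apart.

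GC content within 1 kb of the 5′ end ran from 48.0% at Lhx8 to 59.1% at Gsx1, against a median of 51.2% over protein-coding genes. Lhx8 fell in decile 4 of GC content, in which 32.1% of protein-coding genes had a promoter summit. Prox1 was in decile 6, with 42.8%, Isl1 in decile 7, with 47.6%, and Nkx2-1 in decile 8, with 51.6%. Gsx1, Gsx2 and Lhx6 were in decile 9, where 56.2% of genes had one. This comparison by GC content was added after the promoter counts were seen.

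**Figure D1:**
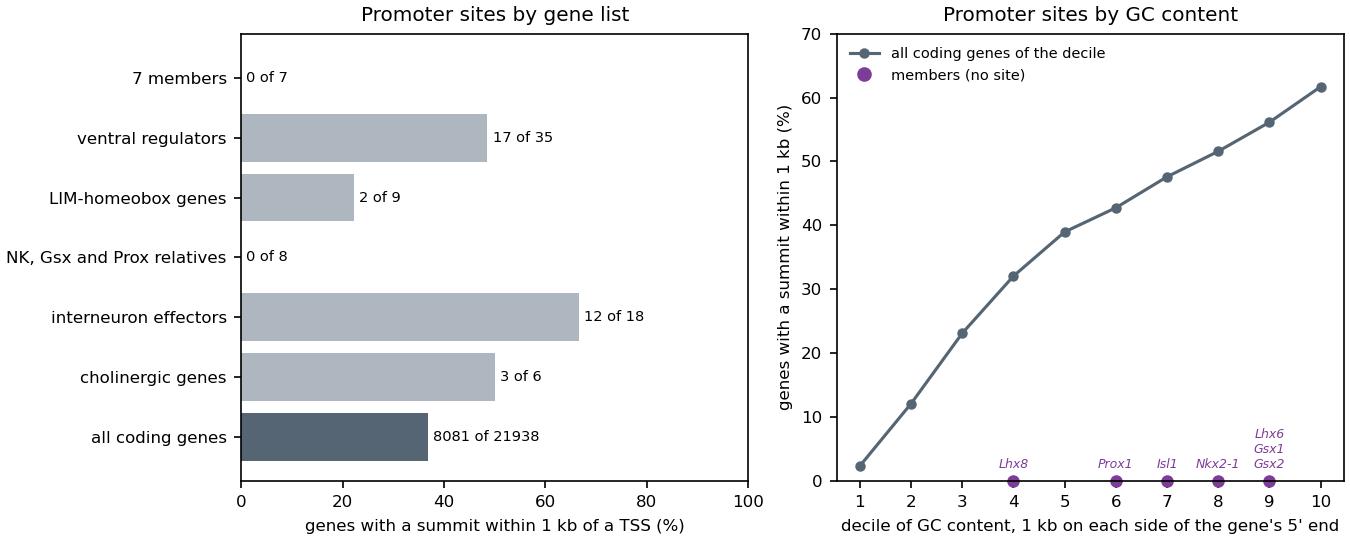
Left, the percent of genes with a CTCF summit at most 1 kb from a TSS, in the 7 genes, in 5 related gene lists without those 7, and in all protein-coding genes, with counts beside the bars. Right, the same percent over protein-coding genes in each decile of GC content around the 5′ end (grey line), with the deciles of the 7 genes marked at 0. The 7 genes and their NK, Gsx and Prox relatives had 0 promoter sites, whereas 36.8% of all protein-coding genes had one.

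Weak peaks that had not passed the authors' reproducibility threshold were present near 6 of the 7 start sites. The list of 300000 peaks called on both libraries together placed a summit that close to a TSS in 6 of the 7 genes and in 68.5% of protein-coding genes. The strongest of these, at Gsx2, had a signal value of 13.1, and the weakest of the 6, at Isl1, had 7.75. The optimal list had a median of 64.3 and a lower quartile of 32.2. Replicate 1 alone had a weak peak near 3 of the 7 genes, Lhx6, Gsx2 and Prox1, with values up to 6.14. Replicate 2 had one near 6, with values up to 7.69, and Lhx8 had none in any of the 3 lists. This count was also added after the promoter counts were seen.

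Only Lhx8 carried a CTCF site within its own body. The count was 1 of 7, against 53.0% of protein-coding genes with a body summit and 59.3% with a summit in the body or within 1 kb of a TSS. Several members are short: Gsx1 spans 2.25 kb, Gsx2 2.29 kb, Nkx2-1 4.95 kb and Isl1 11.4 kb. The median of the 7 was 11.4 kb, and that of protein-coding genes 17.4 kb. Prox1, the longest at 52.7 kb, had no summit in its body. The Lhx8 site lay in an intron, at chr3:154317905-154318204. Its signal value was 74.0 in the optimal list, 36.5 in replicate 1 and 39.2 in replicate 2, so it was close in the 2 libraries.

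No optimal-list summit lay within 1 kb of a start site of these genes. Within 5 kb, 3 of the 7 genes had one, against 52.3% of protein-coding genes. These were Nkx2-1, Isl1 and Gsx1, and in each, the summit was upstream. The strongest was the Nkx2-1 site 4379 bp upstream, with a signal value of 216 in the optimal list, 117 in replicate 1 and 98.7 in replicate 2. It overlapped an exon of Gm26973, an annotated antisense RNA gene, and its motif, with 0 mismatches, pointed at Nkx2-1. At Isl1 the summit 2647 bp upstream had 97.1, with 54.6 in replicate 1 and 45.4 in replicate 2. At Gsx1 the summit 2629 bp upstream was weak in both libraries, with 29.8 in the list, 13.9 in replicate 1 and 14.5 in replicate 2.

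In the other members the nearest summit was farther away. It was 7460 bp upstream of Lhx6, 11397 bp upstream of Prox1, 12004 bp downstream of the Lhx8 start and 43433 bp downstream of Gsx2. The Lhx6 site had a signal value of 42.0, and the replicates differed more there than at most sites, with 28.9 in replicate 1 and 12.3 in replicate 2. The Prox1 site, in an intron of Prox1os, had 47.0, with 19.6 in replicate 1 and 27.2 in replicate 2. The Gsx2 site had 34.2, with 20.1 and 14.3 in the replicates. Gsx2 depended on the peak list: the conservative list had a weak summit 4121 bp downstream of its TSS (chr5:75079573-75079872), with 21.1, and 10.3 and 11.5 in replicates 1 and 2. The median distance was 7.46 kb over the 7 genes and 4.17 kb over protein-coding genes, and with the conservative list that of the 7 genes was 4379 bp.

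The nearest site had a motif match in 2 of the 7 genes, Nkx2-1 and Gsx2, and in 57.9% of protein-coding genes with a summit within 200 kb. Of these nearest sites, 3 were above the list's median signal value, those of Nkx2-1, Isl1 and Lhx8. The same share over protein-coding genes is not given here. The strongest site within 200 kb had a motif match in 6 of the 7 genes, near the 87.9% of protein-coding genes. Isl1, whose only site was both nearest and strongest, had none.

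Summits within 200 kb were common around 4 of the genes and few around the other 3. Gsx1 had 18, Gsx2 17, Nkx2-1 16 and Lhx6 15, close to the median of 14 over protein-coding genes, whose quartiles were 8 and 23. Lhx8 and Prox1 had 6 each, and 21.5% of protein-coding genes had 6 or fewer. Isl1 had 1, and 9.44% of protein-coding genes had 1 or none. At least 1 such summit was present near 93.3% of protein-coding genes, so having one in all 7 members is near the background.

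**Figure D2:**
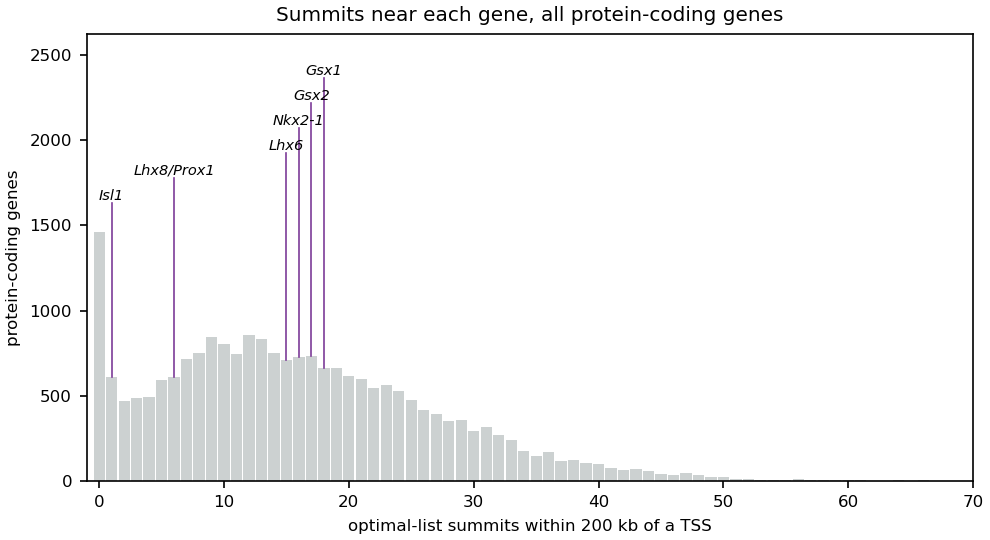
Number of protein-coding genes (vertical axis) by the number of optimal-list CTCF summits within 200 kb of a TSS (horizontal axis), with the 7 genes marked. Isl1 sits at 1 summit, Lhx8 and Prox1 at 6, and Lhx6, Nkx2-1, Gsx2 and Gsx1 between 15 and 18, near the median of 14.

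**Figure D3:**
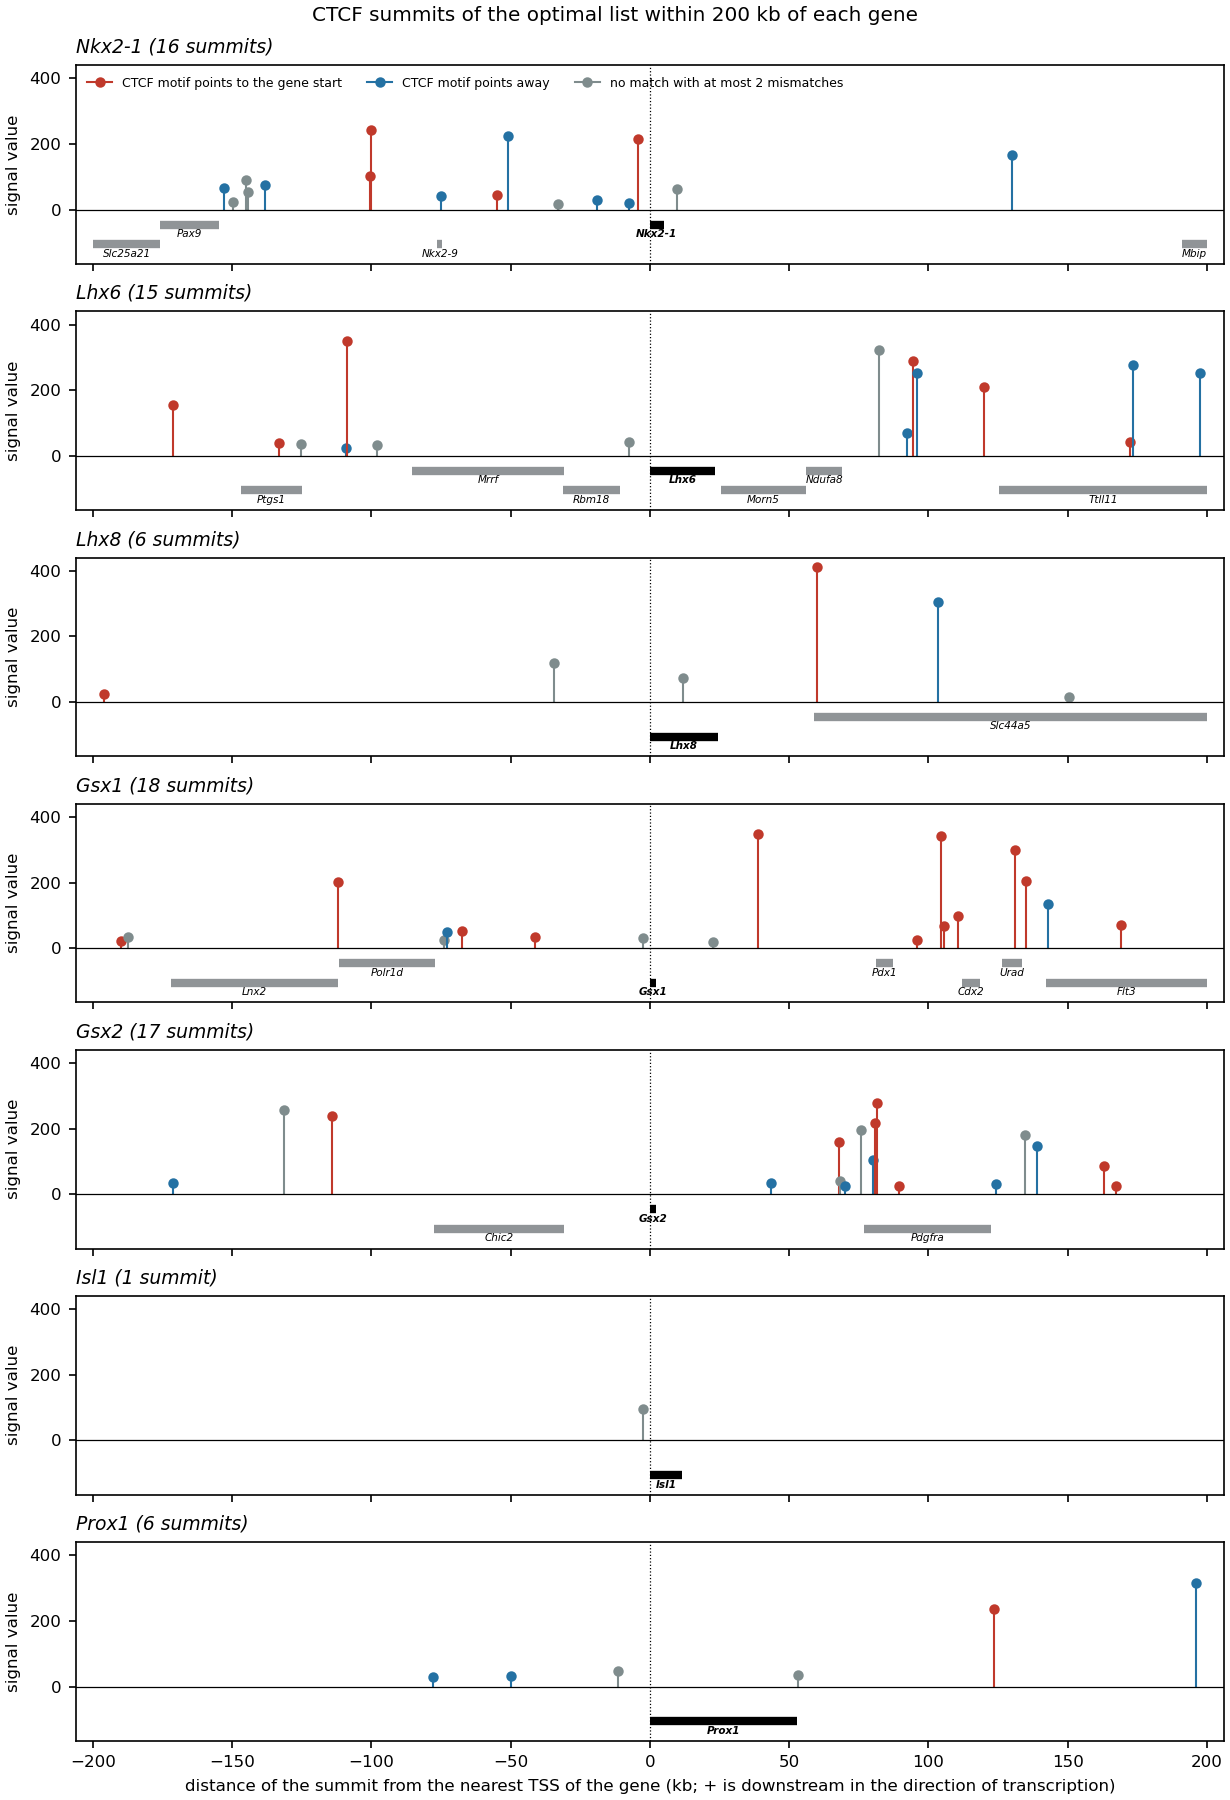
CTCF summits within 200 kb of each gene, by distance from its nearest TSS in kb (horizontal axis, downstream to the right) and signal value (vertical axis). Red marks a motif that points to the gene start, blue one that points away and grey no match; black bars are the gene and grey bars other protein-coding genes, placed from the gene's 5′ end. No optimal-list summit lies at 0 in any panel, and the nearest summits are 2629 bp away at Gsx1, 2647 bp at Isl1 and 4379 bp at Nkx2-1.

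Nkx2-1 (chr12:56531958-56536908, − strand), the medial eminence regulator, had 14 of its 16 summits on the upstream side, which also holds Nkx2-9 and Pax9. Its neighbour Mbip lay 186 kb away on the other side, and that stretch held a summit 9552 bp downstream and one 130044 bp downstream. The 3 strongest sites were 100075, 51077 and 4379 bp upstream. The first, between genes and nearest to Nkx2-9, had a signal value of 243, with 133 in replicate 1 and 109.9 in replicate 2. The second, in an intron of Gm26973, had 223, with 116 and 108. These 3 sites differed little between the libraries, and the motifs of the outer and inner ones pointed at Nkx2-1 while the middle one pointed away. Above the list's median signal value were 8 of the 16 summits.

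Lhx6 (chr2:36081953-36105408, − strand), needed for parvalbumin and somatostatin interneurons, lay in a stretch of 91.1 kb that held the gene and no optimal-list summit. The stretch ran from the site 7460 bp upstream to one 82251 bp downstream, beyond Morn5 and Ndufa8. The conservative list had a weak summit inside it, 58741 bp downstream, with a signal value of 36.2. Strong sites stood on both sides at a distance. The strongest, 108826 bp upstream, had 350.4, with 187 in replicate 1 and 165 in replicate 2. The downstream edge at 82251 bp had 324, with 167 and 156. Close behind it, the site at 94472 bp had 290.0, with 154 and 135. Replicate 1 was the higher at each, as at 73.4% of sites across the list, where its median ratio to replicate 2 was 1.15. The site at 82251 bp had no motif match. The median signal value of the 15 sites was 154, the highest among the 7 genes.

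Lhx8 (chr3:154306294-154330659, − strand), a cholinergic neuron regulator, had few sites, yet the strongest one of all 79. That site, 60134 bp downstream in an intron of Slc44a5, a choline transporter-like gene, had a signal value of 409.8 in the optimal list, 219.7 in replicate 1 and 191 in replicate 2. Its level was at percentile 98.8 of the list. A second site in Slc44a5, 103481 bp downstream, had 303, with 162 and 142 in the replicates. On the upstream side the site at 34391 bp had 118, with 64.6 and 50.6, and no motif match. The next was weak, 24.9 at 196120 bp, and the protein-coding neighbour on that side, Tyw3, is 246 kb away.

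Gsx1 (chr5:147188696-147190947, + strand), a progenitor patterning gene, lies between Polr1d, at 77.1 kb, and Pdx1, at 79.0 kb, with 7 summits between these neighbours. A weak site on each side, 2629 bp upstream and 22688 bp downstream, bounded 25.3 kb with the gene in it. The first strong site downstream was at 38859 bp, with a signal value of 347, 181 in replicate 1 and 165 in replicate 2. Upstream the first strong site was at the start of Lnx2, 112121 bp away, with 202, and 115 and 86.8 in the replicates. The other 2 of the 3 strongest were near Cdx2 and Urad, at 104625 bp with 341 and at 131179 bp with 299.6. Of the 9 downstream sites with a motif, 8 pointed towards Gsx1. Those other than the site at 38859 bp lay beyond Pdx1 and were nearer to the starts of other protein-coding genes. The same share around other genes is not given here, so this count cannot be called high or low.

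Gsx2 (chr5:75075601-75077893, + strand), the lateral eminence patterning gene, had none of its 17 optimal-list summits nearer to its own start than to that of another protein-coding gene. No optimal-list summit lay in the 158 kb between 114240 bp upstream and 43433 bp downstream, which also held Chic2. The conservative list had a weak summit in that stretch, 4121 bp downstream of the Gsx2 TSS, with a signal value of 21.1. Downstream sites gathered at Pdgfra, the growth factor receptor gene of oligodendrocyte precursors, where 3 summits lay within 1 kb of its start. The strongest of the 17, in an intron of Pdgfra 81667 bp from Gsx2, had a signal value of 279, with 145 in replicate 1 and 134 in replicate 2. Upstream, the sites at 131389 and 114240 bp had 256 and 239.8, with 134 and 131 in replicate 1 and 122 and 109 in replicate 2. Both upstream sites lay beyond Chic2, and the nearer one was in an intron of Gm6116.

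Isl1 (chr13:116298281-116309689, − strand), which encodes a LIM-homeodomain factor, stood nearly alone. The protein-coding neighbours were Itga1, 1196 kb away, and Parp8, 545 kb away, and 10 summits lay between these 2 genes. Beyond the single site at 2647 bp, the next upstream summit was at 205 kb, with a signal value of 24.2, and the next downstream one at 584 kb, with 72.9. Isl1 and its 3′ side thus lay in 587 kb without an optimal-list summit. Such an interval was shorter than this at 91.7% of protein-coding genes, whose median was 39.99 kb.

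Prox1 (chr1:190118035-190170714, − strand) had 3 weak sites upstream and 1 weak and 2 strong ones downstream. The upstream sites, at 11397, 49895 and 77931 bp, had signal values of 47.0, 30.8 and 28.3. Of these the last had 0 mismatches to the motif, although its signal value was at percentile 19.5 of the list. Downstream, the site at 123411 bp had 237, with 121 in replicate 1 and 116 in replicate 2. The site at 196161 bp, nearest to Smyd2, had 314, with 174 and 144. On the upstream side the first summit above the list's median was 525060 bp away. All 5 sites other than the last were nearer to the start of Prox1 than to that of any other protein-coding gene.

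The 79 summits were of ordinary strength for the list. Their median signal value was 71.1, against 64.3 over the list, and 43 of 79 (54.4%) were above the list's median. They ran from 15.4, at Lhx8, to 409.8, also at Lhx8. Identical coordinates were found in the conservative list for 69 of the 79 (87.3%, against 86.8% of the whole optimal list). The 10 summits found in the optimal list alone had values from 18.7 to 41.6. The conservative list added 11 weak sites of its own near Lhx6, Gsx1, Gsx2 and Prox1. By annotation, 46 of the 79 lay outside any protein-coding or long noncoding RNA gene, and 21 had a member as the nearest protein-coding start. Neither share is given here for the list or for other protein-coding genes, so neither count can be called high or low.

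The replicates were close at the strong sites and spread at the weak ones. All 79 sites overlapped a called peak in both libraries, where each library's list held 300000 peaks. The same share over the optimal list is not given here, so this count cannot be called high. At the Lhx8 site 150417 bp downstream, no replicate 2 summit lay within 100 bp. Replicate 1 was the higher in 53 and replicate 2 in 26. Across the whole list replicate 1 was higher at 73.4% of sites, with a median ratio of 1.15, and log2 ratios were centred on it. The SD of the centred log2 ratio was 0.50 over the 79 sites, as over the list. It was 0.22 for sites above the list's median signal value and 0.70 for those below it. Over the list the same 2 values were 0.26 and 0.66. More than 1 log2 unit from the centre were 7 of the 79 (8.86%, against 6.26% of the list), 3 higher in replicate 1 and 4 in replicate 2. None of these 7 was above the list's median, and 1 of them, the Lhx6 site at 7460 bp (1.03), was in the conservative list.

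The widest gap in favour of replicate 1 was 149647 bp upstream of Nkx2-1, near Pax9, where replicate 1 had 19.6 and replicate 2 had 5.50, which gives 1.63 on the centred log2 scale. In the other direction the site in a coding exon of Nkx2-9, 75034 bp upstream of Nkx2-1, had 11.7 and 27.5, or -1.43 on that scale. With 1 library on each side neither has a test.

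**Figure D4:**
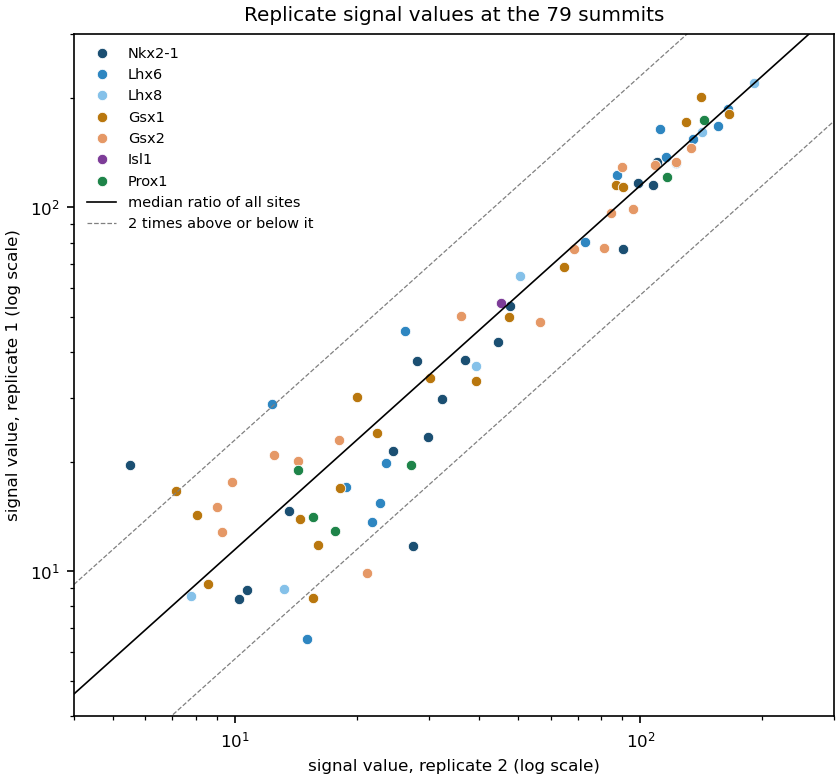
Signal value in replicate 1 (vertical axis) against replicate 2 (horizontal axis) at the 79 summits, both on log scales, coloured by gene. The black line is the median ratio over the optimal list, 1.15, and the dashed lines are 2 times above and below it. The 7 points outside the dashed lines are all weak sites, and the points close up along the line as the signal value grows.

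The CTCF motif was about as frequent near these genes as in the whole list. A match was found at 56 of the 79 summits (70.9%, Wilson 95% interval 60.1 to 79.7%, counting error only), against 66.6% of the list. Windows of the same length 1000 bp upstream and downstream of all list summits had one in 2.91% and 2.97%. The match had 0 mismatches at 13 summits, 1 at 17 and 2 at 26. Sites with 0 mismatches were 16.5% of the 79 and 9.44% of the list, a difference that was not tested. The median signal value was 100.3 with a match and 42.0 without, and over the list 93.0 and 38.3. A match is a description of the letters and does not show which protein was bound. Of the 43 sites above the list's median 35 (81.4%) had a match, as did 80.8% of such sites in the list. Among the other 8 were the Lhx6 site 82251 bp downstream and the Gsx2 site 131389 bp upstream.

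Motif direction showed no single pattern. Of the 56 matches, 32 (57.1%) pointed at the start of their gene and 24 away. The same share around all protein-coding genes is not given here, so 57.1% cannot be called high or low. The nearest motif sites on the 2 sides of the gene body pointed towards each other at 3 of the 7 genes, Lhx8, Gsx1 and Isl1, where 28.5% of protein-coding genes had such a pair. At the other 4 both motifs were on 1 strand, as at 46.3% of protein-coding genes. None had a pair that pointed apart, which 25.2% of protein-coding genes had. At Gsx1 the pair lay 41.2 kb to the left and 36.6 kb to the right, with signal values of 35.5 and 347. At Isl1 it lay 573 kb to the left and 403 kb to the right, with 72.9 and 292. At Lhx8 the left site was the strongest of all, 36.4 kb from the gene, and the right one, 196 kb away, was weak, with 24.9.

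Relatives of these genes also had few promoter sites, whereas most effector genes of interneurons had one. The lists were counted as descriptions, with no test. Of 8 further NK, Gsx, Pdx and Prox relatives 0 had a summit within that 1 kb, beside 36.8% of protein-coding genes. The median GC content of these 8 was 54.5%, within decile 7, where 47.6% of protein-coding genes had one. Nkx2-4, the paralogue of Nkx2-1, had its nearest summit at 71.9 kb, and Prox2 at 4.66 kb. Of 9 other LIM-homeobox genes 2 had a promoter summit: Lhx1, with a signal value of 36.2, and Lhx2, with 20.8. The median GC content of these 9 was 59.2%, within decile 9, where 56.2% of protein-coding genes had one. Isl2 had its nearest summit at 5.05 kb. Body summits were present in 4 of the 8 and in 7 of the 9, beside 53.0% of protein-coding genes.

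Among 35 other regulators of the ventral telencephalon and its interneurons, 17 (48.6%) had a promoter summit, beside 36.8% of protein-coding genes. The median GC content of these 35 was 56.5%, within decile 8, where 51.6% of protein-coding genes had one. Among the 17, Lmo1 had a signal value of 293 and Gli1, a transcription factor of the hedgehog pathway, had 267. The Dlx genes, which act beside Gsx2 in interneuron progenitors, had none within 1 kb. Their nearest summits were 1.27 kb from Dlx2, 3.03 kb from Dlx5, 7.24 kb from Dlx6 and 19.9 kb from Dlx1. Nkx2-2 is in this list and among the NK relatives.

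Of 18 interneuron effector genes 12 (66.7%) had a promoter summit, beside 36.8% of protein-coding genes. The median GC content of these 18 was 55.3%, within decile 8, where 51.6% of protein-coding genes had one. Calb2, which encodes the calcium-binding protein calretinin, had a signal value of 376, the potassium channel gene Kcnc1 274 and the chemokine receptor gene Ackr3 217. The weakest of the 12 was at the transmitter enzyme gene Gad2, with 16.4. Of 6 cholinergic genes 3 (50%) had a promoter summit, beside 36.8% of protein-coding genes. The median GC content of these 6 was 57.2%, within decile 9, where 56.2% of protein-coding genes had one. Among the 3 were Ngfr, with a signal value of 31.1, and Slc18a3, the vesicular acetylcholine transporter gene, with 25.8. The median distance to the nearest summit was 0.491 kb in the effector list and 7.46 kb in the 7 genes.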

How the data were processed

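The deposited files were peak lists on mm10, per the labels: 1 per replicate, 1 called on both libraries together, and an optimal and a conservative list, both filtered by irreproducible discovery rate (IDR). Not given in the sources used here are the caller, aligner and depth. Every deposited peak had a signal value, a −log10 q-value, which was not used, and, in the authors' IDR lists, a score. Summits are the start plus column 10. A replicate's value was that of its strongest overlapping peak.

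Gene models were GENCODE M21 basic transcripts, with gene bodies as annotated, and sequence was GRCm38 (mm10). The 8 unplaced optimal-list peaks were left out. No test was made. Named were all members, their nearest, body and 3 strongest sites, the Dlx genes, 3 paralogues and up to 3 genes per list with the strongest promoter site. Some genes that this rule names are not reported here. Gad2 and other single sites were named after their values were seen. The members and lists were chosen with earlier results of these data known. Alternatives were other lists, windows, motif limits and single replicates. The scan and counts were tested on simulated data. Tools were Python 3.11.15, numpy 2.4.6, pandas 2.3.3, scipy 1.17.1, pysam 0.24.0, samtools 1.23.1 and matplotlib 3.10.9.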

Additional observations from a re-analysis of the deposited data

How the results depend on the processing

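The count of genes with a promoter site stayed at 0 with the conservative list, the optimal-list sites above its median signal value, each replicate alone, 500 bp windows and 1 TSS per gene. It was 3 with 5 kb windows and, chosen after seeing the data, 6 with every peak of the list called on both libraries. The count of genes with a body site stayed at 1 under every alternative run. The total of 79 summits within 200 kb was 80 with the conservative list, 76 to 81 with 1 replicate alone, 43 with sites above the list's median, 39 within 100 kb and 173 within 500 kb, the last 3 by construction. The median distance to the nearest summit, 7460 bp, was 4379 bp with the conservative list, which adds the Gsx2 site at 4121 bp, 4382 to 7460 bp with 1 replicate alone and 38859 bp with sites above the median, which are fewer. The median of the strongest signal values, 314, was 144 to 174 in 1 replicate alone, each on its own scale. The share with a motif, 70.9% at 2 mismatches, was 38.0% at 1 and 83.5% at 3, and 67.1 to 67.9% with 1 replicate alone. No paired analysis was possible because the series has 1 group. Read depth was not given, so the lists do not show what weaker binding was missed.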
